A study of Mus musculus with 4 samples.

Results

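Dividing cells of the neural stem cell (NSC) line XN4 were taken as the cells with at least 1 read of both *Mki67* and *Top2a*. Of the 3927 XN4 cells in the normalized table, 690 (17.6%, exact 95% binomial interval 16.4 to 18.8%) had reads of both genes. They were compared with 2456 cells that had reads of neither gene, and 349 cells with *Mki67* alone and 432 cells with *Top2a* alone were kept apart. The normalized tables of the 4 NSC lines held 15255 cells in all. XN4 was derived from 129/Sv epiblast stem cells (EpiSCs) and grown with the growth factors EGF and FGF2 (each at 10 ng/ml) and with 10 µM XAV939, a tankyrase inhibitor that lowers Wnt signaling. XN1 had the same additions, KN1 had the growth factors alone, and CN4 had them with 2 µM CHIR99021, an inhibitor of GSK3 that raises Wnt signaling. The XAV939 of XN1 came from another supplier than that of XN4. All lines were captured on the BD Rhapsody system, a microwell platform, after dissociation with Accutase and storage in a preservative, with 1 library per line. With 1 library, no replicate check of any difference was possible, and every interval covers the counting of cells or reads only.

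A dividing cell copies its DNA in S phase and parts the copies in mitosis, and both steps rest on genes that are transcribed in waves. Genes of DNA replication are switched on by E2F factors near the start of S phase. Genes of mitosis follow in G2, when repression at a short promoter element, the cell cycle genes homology region (CHR), is lifted and the CCAAT-binding factor NF-Y and B-Myb with FoxM1 act nearby. *Mki67* codes for the Ki-67 protein that coats mitotic chromosomes, and *Top2a* for the topoisomerase that untangles sister DNA. Neural stem cells of the early embryo cycle fast, and EGF and FGF2 keep them cycling in culture.

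The promoters of genes named in the comparison are shown for these elements, with examples that hold the letters and examples that do not. Each window holds the 250 bases before and the 50 bases after the RefSeq transcription start, on the GRCm38.p6 build, written 5′ to 3′ on the strand of the gene. Capitals mark the CHR letters TTTGAA and TTCGAA, the NF-Y letters CCAAT, and the E2F letters TTTCCCGC and TTTGGCGC, each searched on both strands. The first 3 windows belong to a mitotic kinase gene (*Plk1*, chr7:122159185-122159484, plus strand), a cyclin gene (*Ccnb2*, chr9:70421505-70421804, minus strand), and the gene of an activator of the anaphase promoting complex (*Cdc20*, chr4:118437294-118437593, minus strand). The window of *Top2a* (chr11:99024140-99024439, minus strand) is that of a gene of the selection itself, and the window of *Mcm5* (chr8:75109259-75109558, plus strand), a subunit of the replicative helicase, is that of a replication gene. *Ccnb1* (chr13:100786437-100786736, minus strand), a second mitotic cyclin gene, and *Rrm2* (chr12:24708004-24708303, plus strand), a gene of nucleotide supply, are shown because they hold no CHR and no E2F letters.
Plk1: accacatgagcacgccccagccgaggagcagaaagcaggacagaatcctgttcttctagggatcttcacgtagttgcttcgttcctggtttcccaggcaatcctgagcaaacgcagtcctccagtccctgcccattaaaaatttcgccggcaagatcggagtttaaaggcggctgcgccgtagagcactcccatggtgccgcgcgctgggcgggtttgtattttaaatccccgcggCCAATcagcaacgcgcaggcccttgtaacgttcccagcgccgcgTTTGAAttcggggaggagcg
Ccnb2: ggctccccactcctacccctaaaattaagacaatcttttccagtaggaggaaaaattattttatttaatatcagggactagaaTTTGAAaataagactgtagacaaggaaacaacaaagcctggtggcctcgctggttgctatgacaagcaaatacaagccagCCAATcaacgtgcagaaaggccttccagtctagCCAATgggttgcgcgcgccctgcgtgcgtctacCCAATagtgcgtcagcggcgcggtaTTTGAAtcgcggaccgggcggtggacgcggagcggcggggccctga
Cdc20: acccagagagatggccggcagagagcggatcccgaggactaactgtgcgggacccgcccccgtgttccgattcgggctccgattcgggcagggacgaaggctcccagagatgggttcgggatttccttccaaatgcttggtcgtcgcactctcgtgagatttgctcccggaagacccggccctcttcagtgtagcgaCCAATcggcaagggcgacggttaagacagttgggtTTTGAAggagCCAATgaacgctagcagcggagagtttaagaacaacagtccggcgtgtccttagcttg
Top2a: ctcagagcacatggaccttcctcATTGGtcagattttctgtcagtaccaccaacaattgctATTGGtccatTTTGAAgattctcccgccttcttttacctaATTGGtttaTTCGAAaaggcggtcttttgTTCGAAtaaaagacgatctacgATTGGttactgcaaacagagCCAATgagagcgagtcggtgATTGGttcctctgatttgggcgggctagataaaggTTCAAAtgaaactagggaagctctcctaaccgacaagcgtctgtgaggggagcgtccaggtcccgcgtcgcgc
Mcm5: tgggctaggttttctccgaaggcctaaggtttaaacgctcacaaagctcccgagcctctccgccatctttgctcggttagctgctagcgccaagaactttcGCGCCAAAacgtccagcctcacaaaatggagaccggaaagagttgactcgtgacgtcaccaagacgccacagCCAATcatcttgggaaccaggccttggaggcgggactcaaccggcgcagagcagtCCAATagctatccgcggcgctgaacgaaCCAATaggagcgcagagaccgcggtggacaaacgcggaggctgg
Ccnb1: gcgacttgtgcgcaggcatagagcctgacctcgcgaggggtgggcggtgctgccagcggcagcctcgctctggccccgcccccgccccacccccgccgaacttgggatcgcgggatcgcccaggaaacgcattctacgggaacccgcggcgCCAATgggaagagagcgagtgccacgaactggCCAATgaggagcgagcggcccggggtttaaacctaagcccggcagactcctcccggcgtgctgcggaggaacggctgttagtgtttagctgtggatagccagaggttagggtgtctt
Rrm2: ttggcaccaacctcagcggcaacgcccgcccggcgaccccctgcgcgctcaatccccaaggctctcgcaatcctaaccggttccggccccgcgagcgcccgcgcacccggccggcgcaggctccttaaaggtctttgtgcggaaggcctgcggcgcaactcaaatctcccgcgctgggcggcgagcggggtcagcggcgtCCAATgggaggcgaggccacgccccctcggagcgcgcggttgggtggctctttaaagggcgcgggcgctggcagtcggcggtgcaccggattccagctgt
The windows of *Plk1* and *Cdc20* each held TTTGAA 1 time, and that of *Ccnb2* held it 2 times. *Top2a* held TTTGAA 2 times, the palindrome TTCGAA 2 times, and CCAAT 6 times. The *Mcm5* window held no CHR letters, CCAAT 3 times, and the E2F letters TTTGGCGC 1 time, on the opposite strand. The windows of *Ccnb1* and *Rrm2* held CCAAT 2 times and 1 time, and none of the other letters.

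The number of dividing cells depended on depth. Reads were counted over the genes of the normalized table, which held no ribosomal protein or mitochondrial genes. The dividing cells had a median of 13765.5 reads and 3633.5 genes, against 6123 reads and 2067 genes in the cells with neither transcript. Across 10 groups of XN4 cells ordered by reads, the dividing share went from 2.80% (1.41 to 4.95%) in the group with the fewest reads to 35.2% (30.5 to 40.2%) in the group with the most. After each cell was thinned to 3200 reads, which left out 543 shallower cells (22 dividing and 453 with neither transcript), 498 of 3384 cells (14.7%) still had both transcripts. Even at this equal number of reads the cells classed as dividing before thinning had more genes, with a median of 1764 against 1577. A greater depth and a higher RNA content of dividing cells cannot be told apart here. All ratios below compare dividing cells with neither-cells of like depth, within 10 groups of cells with like reads.

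**Figure D1:**
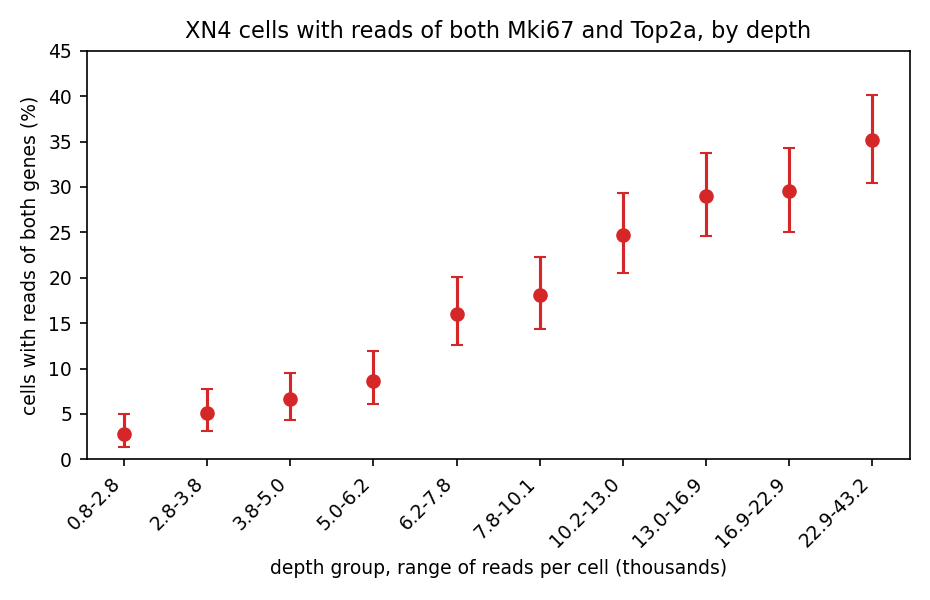
Share of XN4 cells with reads of both *Mki67* and *Top2a* (%, y axis) in 10 groups of cells ordered by reads (x axis, range of reads per cell). Bars are exact 95% binomial intervals, and the share was 2.80% in the first group and 35.2% in the last.

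In the dividing cells *Mki67* (chr7:135689784-135716361, minus strand, GENCODE vM21) had a median of 10 reads per cell, from 1 to 119. *Top2a* (chr11:98992943-99024189, minus strand) had a median of 13.5 reads, from 1 to 127. These are the values that chose the cells, and the shares of dividing cells rest on them. At the threshold, 21 of the 690 cells had 1 read of each gene, while 575 had at least 2 reads of each. Just outside it, 33.0% of the 349 cells with *Mki67* alone and 45.1% of the 432 cells with *Top2a* alone had a single read of that gene. Many cells of the classes left aside thus lay 1 read away from the neither-class.

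Of 15826 listed genes, 9843 were captured in at least 5% of the dividing and neither-cells combined and were compared. Genes nearly silent in neither-cells passed this filter through the dividing cells alone. A level is the mean over cells of the reads of a gene per 10000 reads in the cell, and a level ratio is that of dividing cells over that of neither-cells at like depth. Where neither-cells had fewer than 3 reads of a gene, 3 reads were used. The level was at least 2-fold higher in dividing cells for 528 genes (5.36% of the 9843), and at least 2-fold lower for 332 genes (3.37%). The median log2 ratio of all genes was -0.04, and 45.5% of the genes had a ratio above 1. Because the cells were chosen on 2 cell cycle genes, the ratios of other cell cycle genes describe these cells and are not tests.

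Cyclins and kinases that drive entry into mitosis were higher in dividing cells without exception: 21 of 21 compared genes passed 2-fold, against 5.36% of all genes, with a median log2 ratio of 5.23. *Plk1*, the polo-like kinase of centrosome maturation and mitotic exit, had a level of 1.58 in dividing cells and 0.0132 in neither-cells, a ratio of 119. *Ccnb1*, the cyclin partner of Cdk1 in mitosis, had 3.30 and 0.0347, a ratio of 95.3. *Aurka*, a kinase of the spindle poles, had a ratio of 95.4, and *Cdk1* itself had 21.8. The smallest ratios were those of *Wee1*, the kinase that holds Cdk1 inactive, at 5.56, and of the Cdk-binding subunit gene *Cks1b* at 3.87. In single cells the transcripts were patchy. *Plk1* had 0 to 20 reads per dividing cell, with a median of 1, and 44.6% of dividing cells had no read. In neither-cells it had 0 to 4 reads, and 99.0% had none. At 3200 reads *Plk1* was captured in 32.8% of dividing cells (29.2 to 36.5%) and in 0.399% of neither-cells (0.173 to 0.785%), and *Ccnb1* in 42.1% and 0.949%. The intervals of dividing and neither-cells lay far apart for both genes. Whether the reads in neither-cells came from free RNA or from cycling cells was not tested.

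Motor and spindle genes gave the highest median ratio of any list, with 35 of 35 genes past 2-fold, against 5.36% of all genes, and a median log2 ratio of 5.77. *Kif2c*, a kinesin that takes microtubules apart at kinetochores, had a level of 1.36 against 0.00437, a ratio of 312, and *Kif23*, a kinesin of the midzone between the parting chromosomes, had 2.71 against 0.0162, a ratio of 167. *Prc1*, which crosslinks microtubules of the midzone, had 4.15 against 0.0350, and *Hmmr*, a spindle assembly factor, had 3.35 against 0.0321. *Ckap5*, a microtubule polymerase that interphase cells also need, was nearest to 1, at 3.40. Genes this rare in neither-cells have loose ratios. *Cdca5*, which protects the cohesion of sister chromatids, had the highest ratio in these cells, 494, but on 3 reads in neither-cells. A Poisson interval of those 3 reads gives 169 to 2397, which leaves out how they fell over the depth groups. Such an interval takes the reads as independent, but reads are not counts of molecules, so it may be too narrow. The *Cdca5* level in neither-cells was 0.000993 at like depth and 0.00248 without depth groups. *Arhgef39*, a guanine nucleotide exchange factor gene, also had 3 reads there and a ratio of 424 (145 to 2056). In XN4 cells outside the normalized table both ratios lay below these intervals, at 56.1 and 70.8. The other genes among the 15 highest ratios on the same side of 1 in every depth group were *Cep55*, *Mxd3*, *Troap*, *Ckap2l*, *Nusap1*, *Esco2*, *Nek2*, and *Ndc80*, at 104 to 265.

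All 8 genes of the anaphase promoting complex, its regulators, and the securin system passed 2-fold. The E2 enzyme gene *Ube2c* had a level of 5.82 against 0.119, a ratio of 48.7, and *Cdc20* had 2.64 against 0.0560, a ratio of 47.1. The securin gene *Pttg1* was at 23.2. *Fzr1*, whose product replaces Cdc20 at mitotic exit and acts in G1, had the smallest ratio, 2.86. Of 22 genes of chromosome and nuclear structure, 20 passed 2-fold. *Hmgb2*, a DNA-bending protein gene, had a level of 12.4 against 0.689, a ratio of 18.03, and the condensin genes *Ncaph* and *Ncapg* had 34.4 and 32.8. *Hmgb1* (1.94) and the histone variant gene *H2afv* (1.82) stayed below 2-fold. Over the 4 lists for G2 and mitosis, 84 of 86 genes were called against 5.36% of all genes, and 86 of 86 were above 1. Since the cells were chosen on genes of the same wave, these counts describe the cells and do not bear on the label by themselves.

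DNA replication genes were also higher, by less: 51 of 53 compared genes passed 2-fold, against 5.36% of all genes, with a median log2 ratio of 2.66. *Mcm5* had a level of 1.36 against 0.0839, a ratio of 16.2. It had 0 to 25 reads per dividing cell, with a median of 1. *Pcna*, the sliding clamp of the polymerases, had 2.37 against 0.426, a ratio of 5.57, and *Rrm2*, the regulated subunit of ribonucleotide reductase, had 1.45 against 0.0432, a ratio of 33.6. *Mcm10* led the list at 69.6, followed by the repressor *E2f7* at 50.2. *Slbp*, which binds histone mRNAs, and *Casp8ap2* were lowest, at 1.70 and 1.71. A further 8 of the 61 listed genes, including *Cdc6* and *Ccne2*, which act at the start of S phase, were captured in too few cells to be compared. At 3200 reads *Ccne2* was captured in 7.04% of dividing cells (5.22 to 9.25%) and in 0.449% of neither-cells. Without the filter on capture, 59 of the 61 genes passed 2-fold. Of 20 replication-dependent histone genes, whose mRNAs as a rule lack poly(A) tails, 4 could be compared. The linker histone genes *Hist1h1b* (32.4) and *Hist1h1e* (6.22) were higher, and *Hist1h2bc* was lower (0.432).

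**Figure D2:**
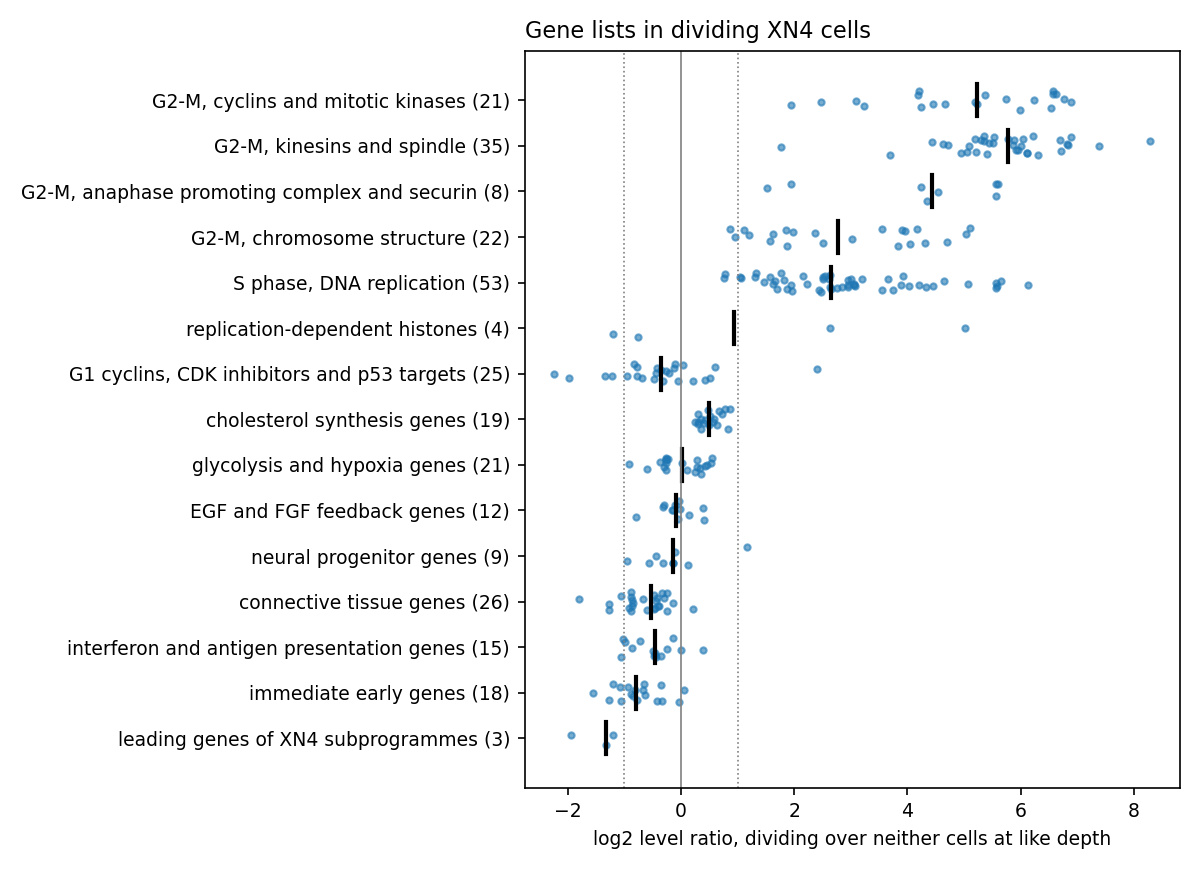
Log2 level ratio of dividing over neither XN4 cells at like depth (x axis) for the compared genes of 15 lists (y axis, number of genes in parentheses). Each point is a gene and each black bar the median of the list; dotted lines mark 2-fold. The lists for mitosis and replication lie right of 0, and the immediate early and connective tissue lists mostly left of it.

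The promoter elements were unevenly spread over the groups of genes. Windows were available for 422 of the 528 higher genes and 254 of the 332 lower genes. The CHR letters TTTGAA stood in 62.3% of the 69 windows of the higher G2 and mitosis genes, in 12.8% of the 39 windows of the higher replication genes, and in 7.87% of the windows of the lower genes. They stood in 18.1% of the windows of all 27025 genes and in 11.4% of those of the compared genes. Either E2F motif stood in 30.8% of the replication windows and 8.70% of the G2 and mitosis windows, against 3.48% of the windows of compared genes and 1.63% of all windows. CCAAT was common in both groups, at 75.4% and 61.5%, against 37.9% of all windows and 33.9% of those of the lower genes. Among the genes with windows shown above, *Plk1*, *Ccnb2*, and *Cdc20* held CHR and CCAAT letters together, as did 58.0% of the windows of their group and 7.70% of all windows. A match of letters is a description and not a bound site, and these shares were not tested.

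The dividing cells were not alike. Summed over 64 genes of the 3 mitosis lists, their levels ran from 9.86 at the 5th percentile to 284 at the 95th, with a median of 128. The median was 9.83 in cells with *Mki67* alone, 6.87 in cells with *Top2a* alone, and 5.19 in neither-cells. The summed level of the 61 replication genes had a median of 44.5 in dividing cells, against 9.94, 11.03, and 7.57. Taking the 95th percentile of neither-cells as a mark on each scale, 482 dividing cells (69.9%) were above both, 148 (21.4%) were above the mitosis mark alone, 5 were above the replication mark alone, and 55 (7.97%, 6.06 to 10.2%) were above neither. Of the neither-cells, 21 (0.855%) were above both. The medians and marks come from all 2456 neither-cells, which had fewer reads (median 6123 against 13765.5), and were not matched for depth. The counts above and below the marks depend on this. The cut between these ranges is arbitrary, and cells lie on either side of it without a gap.

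**Figure D3:**
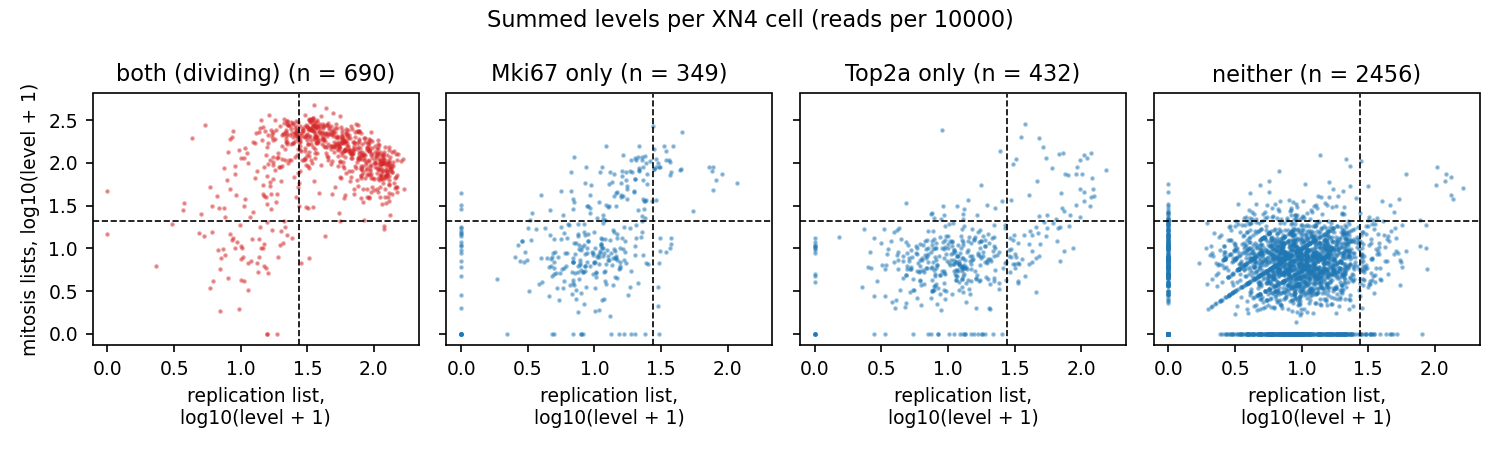
Summed level of the mitosis lists (y axis) against that of the replication list (x axis) in each XN4 cell, as log10 of reads per 10000 plus 1, in the 4 classes of cells. Dashed lines mark the 95th percentile of all neither-cells, not matched for depth. The 690 dividing cells form an arc from high mitosis levels to high replication levels, and 55 of them lie below both lines.

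By median, mitosis transcripts were highest in dividing cells with middle levels of replication transcripts. When the dividing cells were ordered by summed replication level and cut into 4 bins of like size, the median mitosis level was 65.5 in the lowest bin, 206 in the second, 146 in the third, and 91.5 in the highest. The lowest bin was mixed, with quartiles of 13.5 and 184, against 153 and 254 in the second, so its median stands for few of its cells. *Ccnb1* was captured at 3200 reads in 31.3%, 68.3%, 50.0%, and 18.3% of the cells of these bins, and *Cdc20* in 40.0%, 69.5%, 43.0%, and 21.9%. *Ccna2*, the cyclin of both S phase and G2, changed less, with 43.8%, 80.2%, 71.5%, and 62.1%. The median reads per cell of the bins were between 12316 and 14306.5. The rank correlation of both summed levels over the 690 cells was near 0 (Spearman correlation -0.05), while the Pearson correlation of the log levels was 0.29, so neither a rise nor a fall of one with the other holds throughout. The points share 1 library and the total reads of each cell as divisor.

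Pairs of transcripts in single dividing cells showed this division for some genes and not for others. Among 668 dividing cells thinned to 3200 reads, *Cdc20* was captured in 65.1% of cells with *Ccnb1* (59.2 to 70.7%) and in 27.9% of cells without it (23.5 to 32.7%). For *Ube2c* the shares were 77.6% and 39.8%. The helicase gene *Mcm6* went the other way, with 19.6% of cells with *Ccnb1* (15.1 to 24.7%) and 32.8% of cells without (28.2 to 37.7%). *Pcna* (30.6% and 39.3%) and *Rrm2* (22.8% and 31.0%) were also lower beside *Ccnb1*, but their intervals overlapped. *Rrm2* was captured in 42.6% of cells with *Mcm5* (35.2 to 50.3%) and in 22.2% of cells without it (18.6 to 26.1%), and *Pcna* in 54.5% and 28.9%. *Ccnb1* was captured in 33.0% and 45.3%, whereas *Cdk1* (56.8% and 50.0%) and *Ccna2* (67.6% and 63.6%), also of the mitosis lists, had the opposite order, with overlapping intervals.

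The cells with only 1 of the 2 selecting transcripts differed from each other in some cell cycle genes and not in others. The genes below were chosen after their values were seen. *Cenpf*, a kinetochore protein gene of late G2, was captured at 3200 reads in 15.9% of cells with *Mki67* alone (12.0 to 20.4%), in 1.98% of cells with *Top2a* alone (0.859 to 3.86%), and in 50.6% of dividing cells. *Ccnb2* gave 19.1%, 3.96%, and 38.0% in the same order, against 2.35% of neither-cells. *Cdc6* and *Ccne1*, genes of S-phase entry, were captured in 0.647% and 1.62% of cells with *Mki67* alone and in 4.21% and 6.93% of cells with *Top2a* alone. *Hmmr* (13.3% with *Mki67* alone and 3.96% with *Top2a* alone), *Ccna2* (15.5% and 6.93%), and *Cdc20* (9.06% and 2.48%) went the way of *Cenpf*, with intervals apart. Other genes of the same lists gave overlapping intervals in both classes or the opposite order. *Ccnb1* was captured in 3.24% and 2.97% of cells with *Mki67* alone and *Top2a* alone, *Plk1* in 3.88% and 2.23%, and *Cdk1* in 7.44% and 10.1%. Among replication genes, *Rrm1* gave 16.8% and 14.1%, *Tyms* 7.77% and 6.44%, and *Rrm2* 3.24% and 3.47%. In dividing cells the shares were 8.83% (6.79 to 11.2%) for *Cdc6* and 10.6% (8.39 to 13.2%) for *Ccne1*, the latter overlapping the interval of cells with *Top2a* alone (4.65 to 9.86%). Neither-cells were at 0.549% and 2.75%.

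Genes of G1 control were mostly lower or near 1 in dividing cells. Of 25 compared cyclin, inhibitor, and p53 target genes, 1 was called higher and 4 lower, with a median log2 ratio of -0.35. Of all genes, 5.36% were called higher and 3.37% lower. *Ccnd2*, a D-type cyclin that carries mitogen signals in G1, had a level of 0.514 in dividing cells and 2.43 in neither-cells, a ratio of 0.212. It stayed between 0.191 and 0.329 in 5 depth groups. Single cells varied widely, with 0 to 31 reads in dividing cells and 0 to 159 in neither-cells, and 85.5% and 81.1% of cells without a read. *Ccnd1* was at 0.804, with 0.460 to 1.69 over the depth groups, and *Ccnd3* at 0.914. The CDK inhibitor gene *Cdkn2b* (0.254), the p53 target *Trp53inp1* (0.396), and the antiproliferative gene *Btg2* (0.429) were the other lower genes, although *Cdkn2b* and *Btg2* were above 1 in at least 1 depth group. *Cdkn1a*, which codes for the p21 inhibitor, had a ratio of 0.736 and *Cdkn1b*, which codes for p27, 1.16. *Rbl1*, a pocket protein gene and itself an E2F target, was higher at 5.26.

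The genes with the lowest ratios were less steady than those with the highest. Of the 332 lower genes, 126 were below 1 in every depth group, while 503 of the 528 higher genes were above 1 in every one. The shallowest of these groups held only 27 dividing cells. After *Ccnd2*, the named genes that were lower in every depth group included *Timp3*, the gene of an inhibitor of matrix metalloproteinases, with a level of 1.118 against 3.906 (ratio 0.286), *Il6ra*, the receptor of interleukin 6 (0.325), *Nfkbiz*, a nuclear regulator of NF-kB targets (0.331), and the inflammatory caspase gene *Casp4* (0.333). *Tcp11l2* was lowest, at 0.157. Others among the 15 lowest were *Gm48228*, *Ano3*, *S100a16*, *Prr16*, *Zfr2*, *Clstn2*, *Adh1*, and *A230057D06Rik*, at 0.251 to 0.337.

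Most genes of extracellular matrix and stress response had ratios below 1 but did not pass 2-fold. Of 26 connective tissue genes, 25 were below 1 and 4 were called lower (*Timp3*, *Timp1*, *Postn*, and *Col5a2*), with a median log2 ratio of -0.54. Of all compared genes, 3.37% were called lower, and 45.5% were above 1. *Col3a1*, a fibrillar collagen gene, had a level of 42.9 against 58.1 (ratio 0.739), and the matrix protein gene *Sparc* 26.4 against 36.5 (0.722). *Lgals1*, the galectin-1 gene, was the exception at 1.16. The summed level of the list was 179 in dividing cells and 245 in neither-cells at like depth. Of 18 immediate early genes, transcribed within minutes of a stimulus or of cell handling, 17 were below 1 and 5 were called lower, against the same 3.37% of all genes. *Fos* had 0.673 against 1.62 (0.415), the mRNA decay factor gene *Zfp36* 1.41 against 3.23 (0.437), and *Egr1* 5.35 against 8.40 (0.637). Of 15 interferon and antigen presentation genes 14 were below 1, with 2 called lower (*Ifit3*, 0.491, and *Bst2*, 0.482). The genes *Spp1*, *Dpep1*, *Cxcl12*, and *Fosl1* had been found to lead groups of XN4 cells in earlier results of the same data. *Spp1*, *Dpep1*, and *Cxcl12* were lower, at 0.258, 0.398, and 0.432, though *Spp1* ranged from 0.136 to 1.20 over the depth groups. *Fosl1* was captured in too few cells to be compared. Its ratio was 0.757, and 1.04 in XN4 cells outside the normalized table. The nuclear RNA *Malat1* had a level of 112 against 170, a ratio of 0.660.

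Of the cholesterol synthesis genes none of 19 passed 2-fold, where 5.36% of all genes were called higher and 3.37% lower. All 19 were above 1, where 45.5% of all genes were, with a median log2 ratio of 0.49. *Hmgcs1*, an early enzyme of the pathway, had a level of 5.46 against 3.52 (ratio 1.55, with 1.36 to 1.63 over the depth groups), and the sterol carrier gene *Stard4* led at 1.81. Neither direction was shared by glycolysis and hypoxia genes, of which 11 of 21 were above 1, with *Pgam1* at 1.33 and *Pdk1* at 0.529. None of the 21 was called, against the same shares of all genes. EGF and FGF feedback genes were near 1, with a median log2 ratio of -0.08. Of 12 compared none was called, against the same shares of all genes. *Etv5* was at 1.32, *Spry4* at 0.965, and *Egfr*, the EGF receptor, lowest at 0.578. Of the list of Wnt target, feedback, and pathway genes only *Znrf3* (1.23) and the pathway gene *Ctnnb1* (1.01) were frequent enough to be compared.

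The label of XN4 as a neural line was checked on the same cells. In the table of all reads, *Sox1*, *Sox3*, *Fabp7*, and *Hes5* had no read in the 690 dividing cells, which allows a share of up to 0.435% of cells with a read of each. This limits cells with a read and not cells that express the gene, since capture was patchy. Among 8741 XN4 barcodes they had 6, 1, 0, and 0 reads. *Sox2* was captured at 3200 reads in 0.299% of dividing cells and 0.250% of neither-cells. Reads of these 5 markers were thus absent or rare in XN4, dividing or not, which goes against the label of an NSC line as far as capture shows. Among these markers, *Sox2* had levels of 0.0061 in dividing XN4 cells and 0.0175 in neither-cells of like depth. Its levels were 6.36 and 5.22 for CN4, 1.23 and 1.21 for KN1, and 3.16 and 3.06 for XN1. The median reads per cell of XN4 (7796) were above those of CN4 (6572), KN1 (5862), and XN1 (4637). The *Sox2* difference is one between single libraries and was not tested. The name NSC line is kept as the label gives it. Other genes of the progenitor list were captured. The 12 of 16 progenitor genes in the normalized table had a summed level of 17.0 in dividing cells and 20.6 in neither-cells of like depth, most of it from *Vim* (10.7 and 13.3). The connective tissue genes had summed levels of 179 and 245. Of these, *Col3a1*, at 42.9 and 58.1 in XN4, had levels of 0.0205 and 0.00965 in KN1 and 0.0405 and 0.695 in CN4 and was not listed in XN1, a difference between single libraries that was not tested. Of 9 progenitor genes that could be compared, 1 was called higher (all genes, 5.36%): *Nes*, the nestin gene, with 0.441 against 0.196, a ratio of 2.25. The ratio of *Vim* was 0.802 and that of *Sox9* 0.909. The region genes *Irx3* and *Irx5*, active in the neural tube, had nearly equal levels in both classes, with 0.933 against 0.967 and 0.614 against 0.608. No gene of the neuron or epiblast lists was frequent enough. Of the astrocyte, oligodendrocyte precursor, and neural crest lists 5 genes were compared, of which *Agt* was called lower (0.418), against 3.37% of all genes. None of these 5 genes was called higher in dividing cells, against 5.36% of all genes.

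The share of reads from mitochondrial genes turned with the way the cells were compared. These shares come from the table of all reads. Mitochondrial reads made up a mean of 24.8% of all reads in dividing cells and 31.1% in neither-cells. Against neither-cells of like depth, whose mean was 21.1%, the dividing cells were higher instead. In 9 of 10 depth groups the median mitochondrial share was higher in dividing cells, and 70.0% of the 690 dividing cells (66.4 to 73.4%) were above the median of neither-cells of their depth. Like depth here means like reads in the normalized table, which leaves out mitochondrial and ribosomal protein genes, while the shares are of all reads. Of 13 mitochondrial genes, 12 had a ratio above 1 and none passed 2-fold. Among the 9843 compared genes, 45.5% were above 1, 5.36% were called higher, and 3.37% were called lower. Ribosomal protein reads were 5.97% of the reads of dividing cells, between 5.06% in all neither-cells and 6.25% in neither-cells of like depth, and 42.0% of dividing cells (38.3 to 45.8%) were above the median at their depth. None of 77 ribosomal protein genes passed 2-fold, against the same shares of the compared genes, and their ratios ran from 0.775 (*Rpl4*) to 1.17 (*Rpl8*).

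**Figure D4:**
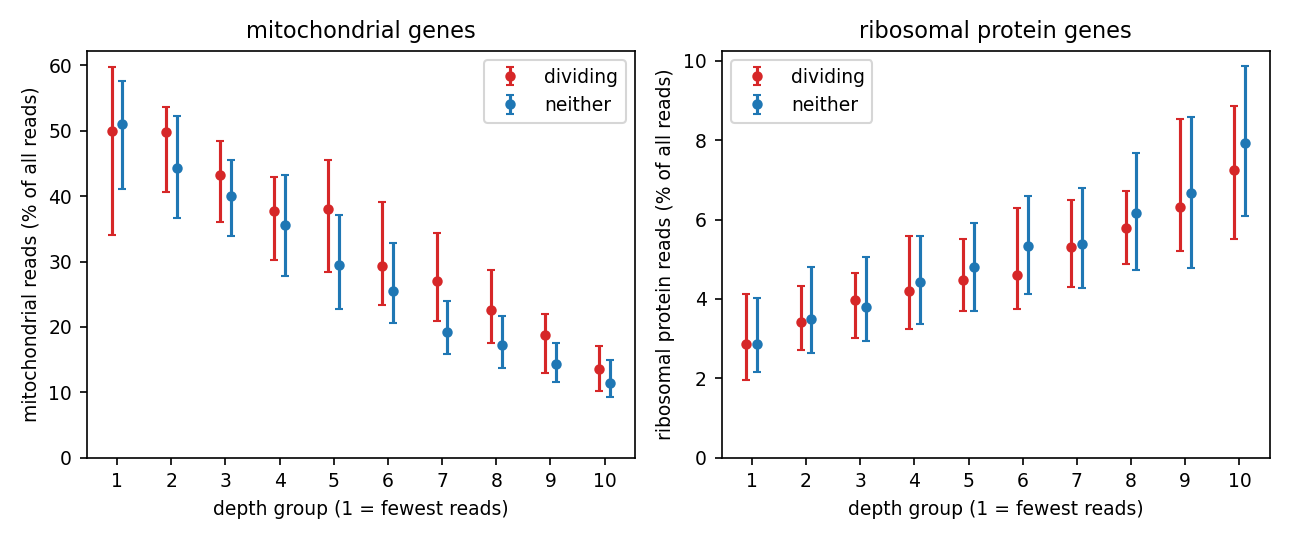
Mitochondrial (left) and ribosomal protein (right) reads as a percent of all reads (y axes) in dividing (red) and neither (blue) XN4 cells of 10 depth groups (x axes), as medians with quartiles. The mitochondrial medians fall with depth in both classes, and that of dividing cells is the higher one in 9 of 10 groups.

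XN4 cells absent from the normalized table, whether undrawn or left out, gave the same comparison a separate set of cells from the same library. Of 4814 such cells, 943 (19.6%, 18.5 to 20.7%) had both transcripts and 2887 had neither. There 5.16% of 10017 genes were called higher and 2.41% lower. Of the 528 higher genes, 461 passed 2-fold again and 527 kept their direction. Of the 332 lower genes, 168 passed 2-fold again and 330 kept their direction. All 84 of the higher G2 and mitosis genes and 51 of the 53 compared replication genes passed 2-fold in these cells. *Plk1* had a ratio of 116, *Mcm5* 14.3, *Ccnd2* 0.290, and *Timp3* 0.372. Of the lower genes named above, *Bst2*, *Btg2*, *Col5a2*, *Hist1h2bc*, *Nfkbiz*, and *Timp1* missed 2-fold there, at 0.506 to 0.557, and *Agt* was captured in too few cells to be compared. *Nes* was not called there, at 1.37, and *Kif2c* was at 74.4. *Cdca5* and *Arhgef39*, the highest in the normalized table, were at 56.1 and 70.8, while *Troap* was at 345, against 124 in the table, so the order of the highest ratios differed between the sets. Both sets come from 1 library, so this repeat says nothing about other cultures of XN4.

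The other lines are set beside XN4 without a test, since each is 1 library. The cells with both transcripts were 20.8% of XN1, 18.9% of KN1, and 47.2% of CN4, and at 3200 reads 19.3%, 17.8%, and 40.0%, against 14.7% of XN4. In XN1 5.76% of compared genes were higher and 2.58% lower in the cells with both, in KN1 3.24% and 0.986%, and in CN4 4.61% and 1.23%. Of the genes higher in dividing XN4 cells, 382 of 462 compared in XN1 (82.7%), 352 of 516 in CN4 (68.2%), and 134 of 313 in KN1 (42.8%) passed 2-fold there, and 119 of 299 compared everywhere passed in all 4 lines. Of the lower genes, 63 of 177 (35.6%) did so in XN1, 30 of 154 (19.5%) in CN4, and 3 of 54 (5.56%) in KN1. *Plk1* had levels of 1.58 and 0.0132 in XN4, 1.81 and 0.0207 in XN1, 0.703 and 0.176 in KN1, and 1.39 and 0.0295 in CN4, in cells with both and with neither. *Mcm5* had ratios of 16.2, 13.1, 1.11, and 3.90 in this order of lines. KN1, which had a median of 833 genes per cell against 2479 in XN4, was lowest for both. *Ccnd2* was below 1 in all 4 lines (0.212, 0.299, 0.700, and 0.496), though its level in neither-cells was 2.43 in XN4 and 17.7 to 29.0 in the others. The cholesterol synthesis genes, all above 1 in XN4, had median log2 ratios of 0.03, 0.13, and 0.01 in XN1, KN1, and CN4.

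**Figure D5:**
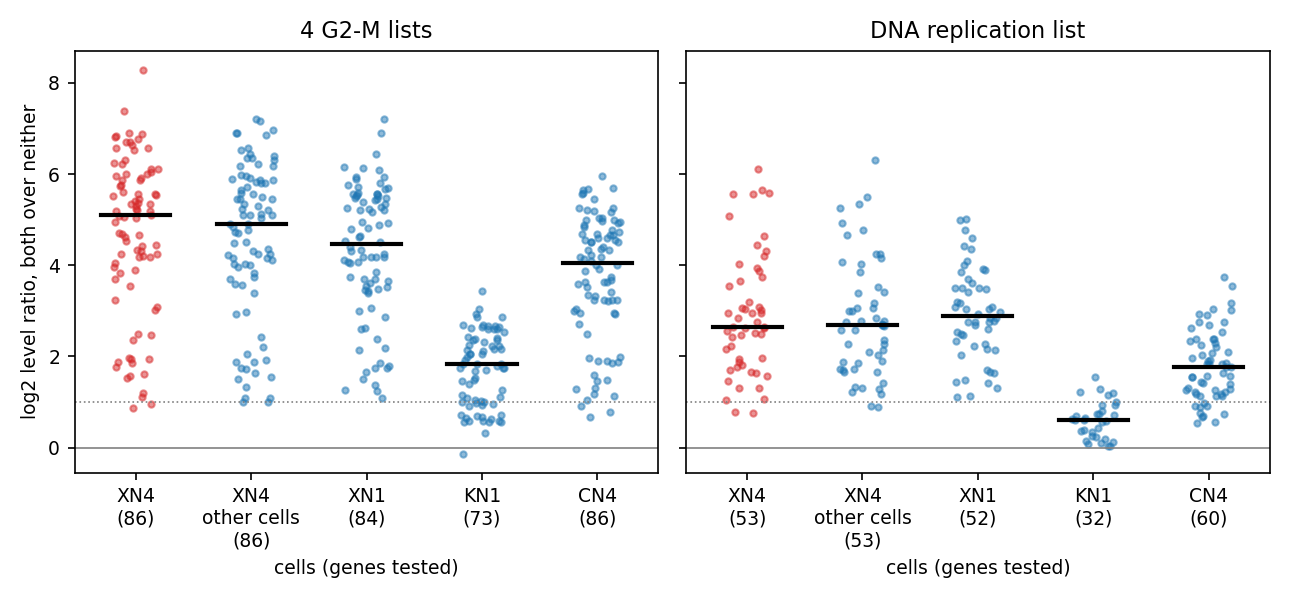
Log2 level ratio of cells with both transcripts over cells with neither (y axis) for the compared genes of the 4 G2 and mitosis lists (left) and of the replication list (right). Points are genes and bars medians, for XN4, the XN4 cells outside the normalized table, XN1, KN1, and CN4 (x axis, number of genes in parentheses). KN1 has the smallest ratios on both lists.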

How the data were processed

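Single-cell RNA sequencing libraries of 4 mouse NSC lines were made on BD Rhapsody. Per the submitters' processing notes, the reads were handled with the BD Rhapsody WTA Analysis Pipeline 1.12.1 and Seurat 4.3.0 on mm10, and strandedness is not given in the sources used here. The deposited tables hold counts for all 8741 XN4 barcodes and, per line, natural log values that the authors computed as ln of 1 plus reads per 10000, after leaving out cells and genes. The authors' natural log values were turned back into reads. All gave whole numbers within 0.01, and in XN4 they were equal to the deposited counts. XN4 held 41539513 reads in 3927 cells.

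Classes, levels per 10000 reads, and ratios weighted to the depth of dividing cells in 10 groups were computed with Python 3.11.15, numpy 2.4.6, scipy 1.17.1, and pandas 2.3.3. The ratios were also computed on simulated data with known folds. There the expected level of a gene did not change with depth, so the weighting to depth was not tested. A call means a level ratio past 2-fold. With 1 library per line no test was made. Intervals of shares are exact binomial at 95%, and those of the ratios on 3 reads are Poisson at 95%. The limit for genes with no read is 3 over the number of cells. Scrublet in scanpy 1.11.5 marked 2 cells as doublets (0.0509%), too few to serve as a filter, so no cell was removed. XN4 shared 17, 19, and 14 barcodes with XN1, KN1, and CN4.

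The text names the 15 highest and 15 lowest genes on 1 side of 1 in every one of 5 depth groups, and examples from 24 lists (407 genes), and some of these genes are not reported here. Cells, lists, and genes were chosen with earlier results of these data known.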

Additional observations from a re-analysis of the deposited data

Results flagged for a closer look

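The normalized XN4 table ends in the alphabet at *Zpr1*, and 38 genes after it appear in the table of all reads only. Of the 24 captured often enough to compare, 3 were past 2-fold higher in dividing XN4 cells, where 5.36% of the 9843 genes compared in the normalized table were. *Zwilch*, which codes for a subunit of the kinetochore complex that brings dynein to chromosomes, had a level ratio of 12.2 (0.730 against 0.0598). *Zranb3*, a gene of replication fork repair, had 4.56, and *Zw10*, another gene of the Zwilch complex, had 2.10. *Zwint*, also of the kinetochore, had 1.29.

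A pair of genes were past 2-fold in opposite directions in XN4 and another line. *Lpl*, the lipoprotein lipase gene, had a level of 6.06 in dividing and 12.5 in neither XN4 cells, a ratio of 0.486. Its ratio was 3.80 in XN1 (0.710 against 0.187) and 3.36 in CN4 (1.20 against 0.358). *Ndrg1*, a gene of hypoxia and differentiation, had 0.345 in XN4 and 4.03 in XN1. In the XN4 cells outside the normalized table the ratios were 0.513 and 0.523, both above the 2-fold mark of 0.5. With 1 library per line the differences between lines were not tested.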

How the results depend on the processing

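The 84 G2 and mitosis genes and 51 replication genes called higher became 73 to 85 and 39 to 59 under the alternatives. The 528 higher genes stayed within 1.5-fold except with no filter on capture (1313). The 332 lower genes became 580 and 185 with capture in at least 2% or 10% of cells and 1592 with no filter. Of 17.6% dividing cells, 14.7% were left after thinning and 14.6% with at least 2 reads of both genes, and cells outside the normalized table gave 19.6%. Without depth groups the share of dividing cells above the neither median turned from 42.0% to 66.7% for ribosomal reads and from 70.0% to 29.6% for mitochondrial reads, which was 65.6% in the cells outside the table. *Sox2*, too rare to be compared, changed sign when thinned (log2 ratio -1.53 to 0.36). Of 1001 values of the named genes past 2-fold under the alternatives, 1000 kept their direction and 959 stayed past 2-fold. Many of these genes were named for their ratios, and most alternatives reuse the same cells, so this steadiness was partly built in. Among all called genes, 461 of 528 higher and 168 of 332 lower ones passed 2-fold again in the cells outside the table. Leaving out the 236 cells with the highest doublet scores removed 10.4% of dividing and 3.83% of neither-cells. No paired analysis was possible because each line was 1 library. At an equal 3200 reads, 270 genes were called lower. The reads are not counts of molecules.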

Other observations

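Genes outside the lists, chosen after their values were seen, filled out the profile of the dividing XN4 cells. *Foxm1*, a transcription factor of the G2 wave, had a level ratio of 17.6, and the DNA repair genes *Fancd2* and *Brca1* had 27.6 and 15.7. *Stmn1*, which binds free tubulin, was at 8.94, and the folate cycle genes *Shmt1* and *Mthfd2* at 5.28 and 2.09. *Ezh2*, the methyltransferase of Polycomb repression, was at 2.41. On the lower side, the metallothionein genes *Mt1* and *Mt2* were at 0.392 and 0.421, the heme oxygenase gene *Hmox1* at 0.377, and the ferritin gene *Fth1* at 0.456. *Dbp* and *Nr1d1*, output genes of the circadian clock, were at 0.389 and 0.465. *Shmt1*, *Dbp*, and *Nr1d1* were not on 1 side of 1 in every depth group, and *Hmox1* and *Fth1* had 0.503 and 0.501 in the XN4 cells outside the normalized table. Since these genes were picked by their values, the ratios are examples and not support for any grouping.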
